A study of Homo sapiens with 208 samples.

Results

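The genes described here encode the subunits, assembly chaperones, activators and inhibitor of the proteasome. They were chosen by name, as every probe whose RefSeq accession maps to a symbol made of PSM, a letter from A to G and a number. Of 48 such symbols 46 had a probe, with 65 probes in all, among 17252 genes and 25436 probes with a symbol. PSMB11, the thymus-specific catalytic subunit, and PSMG4, an assembly chaperone, had none. Of the 46 genes 45 were tested among 13455 genes in all, since PSMA8, the α subunit of testis proteasomes, was well above background on only 2 of 208 arrays. The other members were dim nowhere except PSMD9, with 203 of 208 arrays, so the filter on dim probes chose no other member through 1 group.

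PC9 is a human lung adenocarcinoma line whose EGFR carries an activating deletion, and PC9M2 is 1 gefitinib-resistant clone line, named PC9GRM2 in the sample labels, that was selected from PC9 by culture in gefitinib. Both lines were starved for 48 h and then sampled 26 times between 0 and 24 h under each of 4 treatments, with 1 one-colour Cy3 array per time point, so that 8 time courses of 26 arrays gave 208 arrays. The treatments were none, 0.5 μM gefitinib, an inhibitor of the EGFR kinase, added 2 h before 0 h, 100 ng/ml EGF added at 0 h, and both agents, and all 8 courses share the starvation. Since each course is a single series of cultures, its time points stand in for replicates, and p-values measure the spread over the time points of 2 courses and not that between independent experiments.

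The proteasome degrades proteins that carry ubiquitin chains. Its 20S core is a barrel of α rings, which gate the entry, around β rings, of which PSMB5, PSMB6 and PSMB7 cut peptide bonds, and interferon can replace these with PSMB8, PSMB9 and PSMB10 to form the immunoproteasome, which supplies peptides for presentation on class I molecules. The 19S particle binds, deubiquitinates, unfolds and feeds in the substrate, with a base of ATPases and a lid that holds the deubiquitinase PSMD14. The transcription factors NFE2L1 and NFE2L2 (also called NRF2) act through antioxidant response elements in the promoters of many subunit genes. Interferon regulatory factors act through response elements in the promoters of immunoproteasome genes.

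Because the members are transcribed from separate promoters, the upstream sequences of 6 genes described later are shown as examples. They are the 250 bases before the annotated start from RefSeq, GRCh38.p14, read 5′ to 3′ on the gene's strand. Capitals mark matches on either strand to the antioxidant response element TGACNNNGC, the interferon-stimulated response element and the GAS element TTCNNNGAA.
PSMB9 (chr6:32853942-32854191, plus strand): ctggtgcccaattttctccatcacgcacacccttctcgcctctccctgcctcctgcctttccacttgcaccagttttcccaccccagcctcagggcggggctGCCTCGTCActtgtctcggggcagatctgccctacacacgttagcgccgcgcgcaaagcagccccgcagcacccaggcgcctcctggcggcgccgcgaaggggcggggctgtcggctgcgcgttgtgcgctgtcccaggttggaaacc
PSMB10 (chr16:67936851-67937100, minus strand): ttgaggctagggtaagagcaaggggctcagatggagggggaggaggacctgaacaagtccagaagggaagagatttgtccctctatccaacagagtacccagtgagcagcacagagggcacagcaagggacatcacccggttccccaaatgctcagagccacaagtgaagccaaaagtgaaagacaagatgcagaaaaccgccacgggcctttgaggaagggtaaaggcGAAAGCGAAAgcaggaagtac
PSME2 (chr14:24146611-24146860, minus strand): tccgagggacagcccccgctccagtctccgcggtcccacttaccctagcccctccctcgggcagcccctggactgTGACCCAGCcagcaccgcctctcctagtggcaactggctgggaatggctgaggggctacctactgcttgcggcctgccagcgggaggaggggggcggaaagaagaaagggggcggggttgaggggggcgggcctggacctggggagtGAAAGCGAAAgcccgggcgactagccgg
PSMG1 (chr21:39183452-39183701, minus strand): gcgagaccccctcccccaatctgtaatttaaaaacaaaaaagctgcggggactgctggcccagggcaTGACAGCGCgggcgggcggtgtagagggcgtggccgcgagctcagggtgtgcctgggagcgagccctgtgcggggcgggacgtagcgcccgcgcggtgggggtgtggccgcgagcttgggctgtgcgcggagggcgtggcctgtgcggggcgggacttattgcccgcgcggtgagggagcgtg
PSMD14 (chr2:161308175-161308424, plus strand): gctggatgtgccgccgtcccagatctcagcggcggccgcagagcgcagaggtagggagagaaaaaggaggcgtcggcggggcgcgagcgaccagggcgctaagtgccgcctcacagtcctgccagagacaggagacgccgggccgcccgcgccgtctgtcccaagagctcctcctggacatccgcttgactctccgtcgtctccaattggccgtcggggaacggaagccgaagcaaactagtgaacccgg
PSMD3 (chr17:39980557-39980806, plus strand): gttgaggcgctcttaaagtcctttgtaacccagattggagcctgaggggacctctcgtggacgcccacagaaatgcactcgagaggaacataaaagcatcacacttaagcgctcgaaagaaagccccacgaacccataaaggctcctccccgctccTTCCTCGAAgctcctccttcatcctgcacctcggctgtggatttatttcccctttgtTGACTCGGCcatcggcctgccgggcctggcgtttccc
PSMB10 and PSME2 carry the same 10 letters, GAAAGCGAAA, beginning at positions -21 and -28 from the start, and PSMB9 has no match to the interferon-stimulated response element in this window. PSMB9, PSME2, PSMG1 and PSMD3 hold an antioxidant response element match, at positions -148, -175, -183 and -37. PSMD14, which had the largest fall with gefitinib in PC9, has no match to any of these 3 motifs. PSMB8, an immunoproteasome gene that rose with gefitinib in both lines and is not shown, has none in its window either.

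Promoters of 40 of the 46 members were matched by symbol in the RefSeq table. The antioxidant response element letters were found in 11 of these 40 (27.5%) and in 11% of all 27305 promoters. The interferon-stimulated response element was found in 4 of 40 (10%), PSMA4, PSMB4, PSMB10 and PSME2, against 3.07% of all promoters, and the GAS element in 5 of 40 (12.5%) against 6.78%. Of the other 12 motifs searched, on both strands, the GC box GGGCGG was found in 25 of 40 member promoters (62.5%, against 42.3% of all), a loose NF-kB motif in 25 (62.5% against 53.7%), the CCAAT box in 17 (42.5% against 33%) and the ETS motif CCGGAAG in 9 (22.5% against 8.82%). The TATA box TATAAA was found in 5 (12.5% against 11.1%), the palindrome bound by the nuclear respiratory factor in 3 (7.5% against 5.53%), the E-box CACGTG in 3 (7.5% against 6.49%), the forkhead letters GTAAACA in 2 (5% against 2.98%) and the E2F letters TTTCCCGC in 2 (5% against 1.42%). The Maf recognition element, the CRE TGACGTCA and the heat shock element were found in 0 of 40 member promoters and in 0.333%, 1.77% and 0.439% of all promoters. The Maf element can contain the antioxidant response element on its other strand. A match is a description of letters and not a site.

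Genes that ERK signaling induces were used to check the labels, and 2 arrays went against theirs. At 0.5 h the PC9M2 array labelled EGF had a log2 level of DUSP6 of 7.75, whereas the other 25 arrays of its course lay between 11.98 and 13.87, and the array labelled EGF and gefitinib had 12.53, whereas the others of its course lay between 7.51 and 11.52. SPRY4 and EGR1 were likewise low on the former (5.28 and 7.90) and high on the latter (10.28 and 13.62). ETV5, also checked, lay within the range of the other arrays on both, at 8.94 (others 7.875 to 9.396) and 9.08 (others 6.273 to 9.485). At 0.5 h it was 9.443 in untreated PC9M2 and 9.069 with gefitinib alone, so it hardly separated the treatments then. The arrays were kept under their labels, and values without the 0.5 h time point are given where they differ. Across all tested genes the untreated PC9M2 array at 11 h correlated least with its neighbours in time (r = 0.944, median over all arrays 0.991), followed by the PC9 gefitinib array at 16 h (0.962) and the untreated PC9 array at 18 h (0.965). Values without these times are given likewise.

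Over whole courses the gefitinib minus untreated difference of DUSP6 on the log2 scale was -6.81 ± 0.27 in PC9 and -2.16 ± 0.21 in PC9M2 (SE, n = 26). EGR1, another ERK-induced gene, was lower in PC9 (-3.79 ± 0.18) and did not pass the test in PC9M2 (0.59 ± 0.31, adjusted p = 0.0911). All 7 epithelial markers were well above background on 208 of 208 arrays. Of the markers of other cell types, PTPRC of leukocytes was above background on 1 array, while CD14 and PECAM1 were above it on 208 and 207. The part of other cell types in the results was not tested. In bulk RNA fewer cells of a type and less RNA per cell cannot be told apart. The number of features well above background ran from 24464 to 35938 an array (median 29879), and 183 to 1616 features were saturated on PC9 arrays and 0 on PC9M2 arrays. The 52 slides each held the 4 treatments of 1 line and time, always in the same slide positions, so treatment and position cannot be told apart, and the lines share 0 scan days, so line and scan period cannot be told apart either.

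Most proteasome genes were lower with gefitinib in both lines. In PC9, 28 of the 45 members fell and 7 rose, whereas 37.2% of all tested genes fell and 34.9% rose. In PC9M2, 33 fell and 3 rose, against 33.8% and 32.6% of all genes. The median log2 difference of the members was -0.33 in PC9 and -0.27 in PC9M2, beside -0.024 and -0.0063 over all genes. With EGF present, on other arrays, 29 fell and 9 rose in PC9 (39.9% and 38.9% of all genes) and 36 fell and 7 rose in PC9M2 (37.8% and 36.5%), with member medians of -0.23 and -0.31. Without the 0.5 h time point the last counts were 37 and 7. A call is a two-sided adjusted p under 0.05 in limma, and values given after fell, lower or rose are mean log2 differences ± SE.

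The same genes were counted across comparisons that share no array. Without EGF, 28 members fell in both lines (28.6% of all genes did), and 27 of the 45 fell in all 4 comparisons (26.3%). PSMB8, PSMD3 and PSMG2 were the only members that rose in all 4 (26% of all genes did). PSMA5 and PSMB1 were called higher in PC9 and lower in PC9M2, a pattern of 0.55% of all genes, but both were saturated on all 26 untreated PC9 arrays, so that their direction in PC9 is not established. No member had gefitinib and untreated courses whose ranges did not overlap, which 0.899% of all genes had in the higher and 0.676% in the lower direction in PC9, 0.52% and 0.327% in PC9M2, 1.37% and 1.04% in PC9 with EGF and 0.00743% in each direction in PC9M2 with EGF, so that each change is a shift of courses that still share levels.

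**Figure D1:**
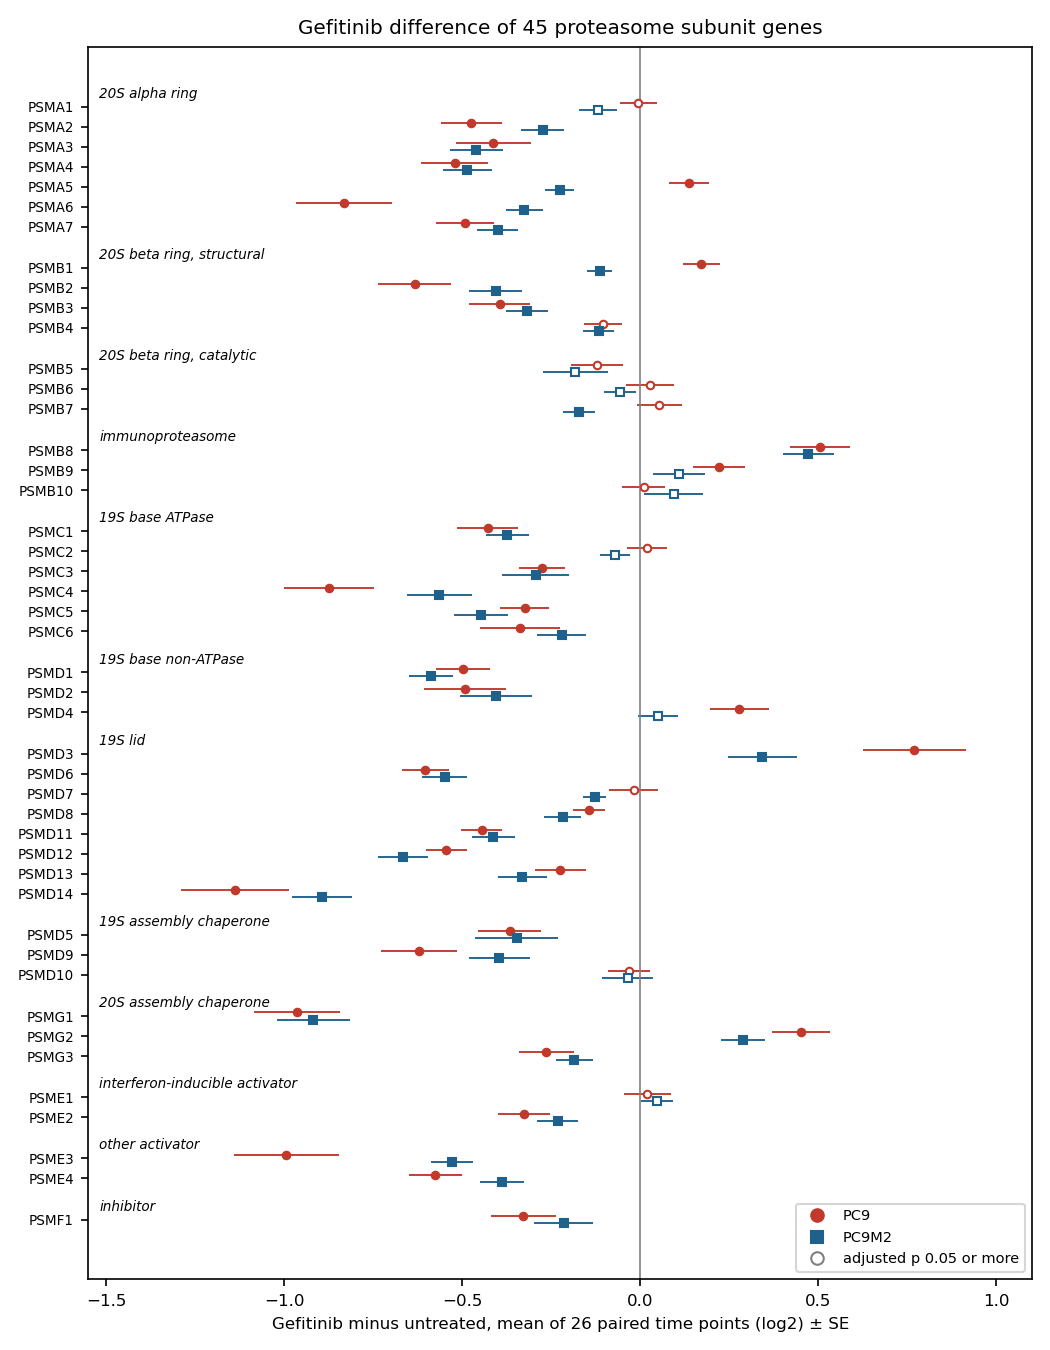
Mean gefitinib minus untreated difference of the 45 tested members on the log2 scale (x axis), by role in the proteasome (y axis), with circles for PC9, squares for PC9M2, bars for the SE over 26 paired time points (25 for PSMA4 in PC9 and PSMD10 in PC9M2) and open symbols for an adjusted p of 0.05 or more. PSMD14, PSMG1, PSME3 and PSMC4 lie farthest to the left in PC9, and PSMD3, PSMB8 and PSMG2 farthest to the right.

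Among the α ring genes, 5 of 7 fell and 1 rose in PC9, and 6 of 7 fell in PC9M2. PSMA6 encodes an α subunit, and its log2 level in PC9 ran from 15.44 to 16.79 with a median of 16.24 untreated and from 14.55 to 16.74 with a median of 15.17 with gefitinib. The treated levels lay within the untreated range only at times up to 5 h and were below it afterwards. The mean difference was -0.83 ± 0.13 (SE, n = 26, 1.78-fold lower, adjusted p = 3.19e-06), with lower values at 22 of 26 time points. In PC9M2 the levels ran from 14.81 to 15.51 with a median of 15.22 untreated and from 14.58 to 15.21 with a median of 14.88 with gefitinib, again overlapping, and the difference was -0.33 ± 0.053 (adjusted p = 3.89e-06). PSMA4 had the largest difference of the ring in PC9M2, -0.49 ± 0.069, with levels from 13.61 to 15.04 with a median of 14.24 untreated and from 13.35 to 14.07 with a median of 13.66 treated. In PC9 the difference of PSMA4 was -0.52 ± 0.094 (n = 25, adjusted p = 1.83e-05). PSMA1 was the α gene with no call in either line without EGF, at -0.0063 and -0.12.

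The β ring genes are given by role. Of the 4 structural β genes 2 fell and 1 rose in PC9, and all 4 fell in PC9M2. PSMB2, a structural subunit, ran from 13.72 to 15.48 with a median of 13.96 in untreated PC9 and from 12.79 to 14.22 with a median of 13.42 with gefitinib. In PC9M2 it ran from 12.53 to 13.74 with a median of 13.42 untreated and from 12.46 to 13.19 with a median of 12.86 with gefitinib. The treated median was below the lowest untreated level in PC9 but not in PC9M2, and the ranges overlapped in both lines. The differences were -0.63 ± 0.10 in PC9 and -0.41 ± 0.075 in PC9M2 (adjusted p = 3.09e-06 and 2.66e-05). None of the 3 constitutive catalytic genes passed the test in PC9 without EGF, and PSMB7 did in PC9M2. PSMB7 was saturated on 25 untreated and 17 gefitinib arrays of PC9 and PSMB6 on 16 and 11, so that their missing calls in PC9 are not read as no change.

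PSMB5, the β5 subunit that bortezomib inhibits, ran from 14.59 to 15.44 with a median of 14.96 in untreated PC9 and from 14.36 to 15.30 with a median of 14.83 with gefitinib, a difference of -0.12 ± 0.073 (adjusted p = 0.139). In PC9M2 the difference was -0.18 ± 0.091 (adjusted p = 0.0782), and without the 11 h time point, at which untreated PC9M2 had its lowest level of 13.42, it was -0.26 (adjusted p = 3.32e-05). With EGF present PSMB5 fell in both lines, at -0.18 ± 0.046 and -0.25 ± 0.051. PSMB6, the β1 subunit, differed by 0.027 ± 0.069 in PC9 and -0.058 ± 0.045 in PC9M2, neither called, and with EGF rose in PC9 (0.20 ± 0.055) and fell in PC9M2 (-0.091 ± 0.034). PSMB7, the β2 subunit, differed by 0.053 ± 0.063 in PC9 (adjusted p = 0.457) and fell, at -0.17 ± 0.045 in PC9M2 (adjusted p = 0.00128).

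Saturation touches these values. On the 104 PC9 arrays the probe of PSMB1 was saturated on 97, PSMA5 on 88, PSMB4 on 87, PSMB7 on 84, PSMB6 on 54, PSME2 on 29, PSMA6 on 26 and PSMB5 on 12, and on the PC9M2 arrays 0. PSMB1 and PSMA5 were saturated on all 26 untreated PC9 arrays, so that only a lower bound of their level is known there, and on 24 and 18 of the 26 PC9 gefitinib arrays. The same bound holds for PSMB4, saturated on 26 of the untreated PC9 arrays, and for PSMB7, saturated on 25. The higher values of PSMB1 and PSMA5 in PC9, 0.17 ± 0.052 (adjusted p = 0.00466) and 0.14 ± 0.055 (adjusted p = 0.0284), therefore rest on saturated spots, and a second probe of PSMB1 gave -0.085 in PC9. With normexp background correction PSMA5 was -0.083 in PC9. In PC9M2, where no spot was saturated, PSMB1 fell, at -0.11 ± 0.035 and PSMA5 at -0.23 ± 0.041 (adjusted p = 0.00539 and 1.9e-05).

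Of the 3 immunoproteasome genes 2 rose in PC9 and 1 in PC9M2 without EGF, and all 3 rose in both lines with EGF. PSMB8, the interferon-inducible β5i subunit, ran from 9.63 to 11.06 with a median of 10.53 in untreated PC9 and from 10.60 to 11.45 with a median of 10.98 with gefitinib. In PC9M2 it ran from 9.18 to 10.36 with a median of 10.06 untreated and from 9.71 to 10.93 with a median of 10.61 with gefitinib. The untreated and treated ranges overlapped in both lines. The difference was 0.51 ± 0.085 in PC9 (1.42-fold, adjusted p = 5.66e-06, higher at 23 of 26 time points) and 0.47 ± 0.071 in PC9M2 (adjusted p = 1.38e-06, 23 of 26). With EGF it was 0.64 ± 0.071 in PC9 and 0.79 ± 0.083 in PC9M2, and higher at all 26 time points in each line. Without the 11 h time point the PC9M2 difference without EGF was 0.44.

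PSMB9, the β1i subunit, ran from 9.68 to 10.94 with a median of 10.39 in untreated PC9 and from 10.11 to 11.17 with a median of 10.55 with gefitinib, which overlapped over most of their range. It rose by 0.22 ± 0.074 in PC9 (adjusted p = 0.00932), a call lost with the scan day as a random block (adjusted p = 0.0758), and differed by 0.11 ± 0.072 in PC9M2 (adjusted p = 0.188). With EGF it rose in both lines, by 0.42 ± 0.056 and 0.20 ± 0.053. PSMB10, the β2i subunit, differed by 0.0094 ± 0.06 in PC9 and 0.094 ± 0.083 in PC9M2 without EGF, neither called. With EGF PSMB10 rose by 0.27 ± 0.054 in PC9 and 0.19 ± 0.053 in PC9M2 (adjusted p = 5.2e-05 and 0.00222). The PC9M2 calls of PSMB9 and PSMB10 were lost when the courses were not paired by time point (adjusted p = 0.115 and 0.291).

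**Figure D2:**
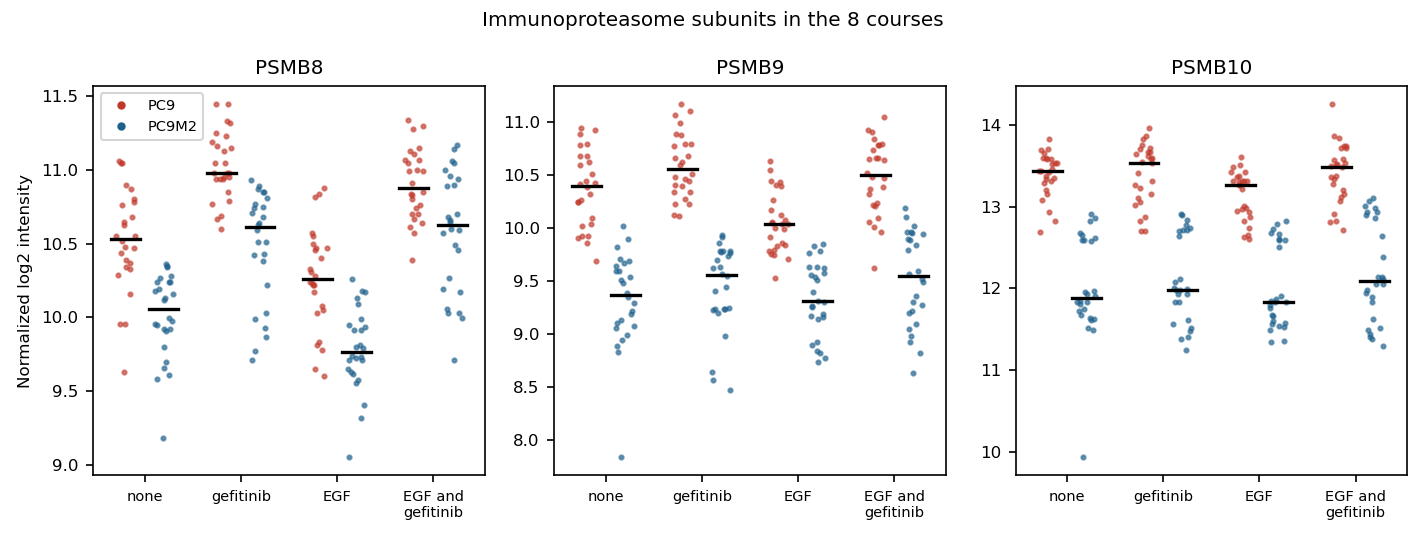
Normalized log2 intensity (y axis) of PSMB8, PSMB9 and PSMB10 in the 8 courses (x axis, treatments), with 1 point per time point, red for PC9, blue for PC9M2 and a black bar for the median. PSMB10 medians are 13.27 to 13.54 in PC9 and 11.83 to 12.09 in PC9M2, and PSMB8 medians are higher with gefitinib than without it in each line.

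In the 19S base, 5 of 6 ATPase genes fell in each line. PSMC4, an ATPase that helps unfold the substrate, ran from 12.87 to 13.89 with a median of 13.24 in untreated PC9 and from 11.61 to 13.51 with a median of 12.42 with gefitinib. The PC9M2 level ran from 12.42 to 13.67 with a median of 13.19 untreated and from 11.67 to 12.86 with a median of 12.67 with gefitinib. The treated PC9 median lay below every untreated PC9 level, although treated levels up to 8 h still overlapped with the untreated ones. The differences were -0.87 ± 0.13 in PC9 (1.83-fold lower, adjusted p = 5.53e-07) and -0.56 ± 0.091 in PC9M2 (adjusted p = 3.54e-06). PSMC2 was the ATPase gene with no call in either line without EGF (0.02 and -0.071), and the other 4 differed by -0.28 to -0.43 in PC9 and by -0.22 to -0.45 in PC9M2.

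Of the 3 non-ATPase genes of the base, PSMD1 and PSMD2, the scaffold subunits, fell in both lines. PSMD1 ran from 10.72 to 12.80 with a median of 11.83 in untreated PC9 and from 10.50 to 12.16 with a median of 11.31 with gefitinib, overlapping broadly, and differed by -0.50 ± 0.076 in PC9 and -0.59 ± 0.061 in PC9M2 (adjusted p = 1.28e-06 and 2.02e-09). PSMD4, a ubiquitin receptor, rose by 0.28 ± 0.083 in PC9 (adjusted p = 0.00401) and had no call in PC9M2, with 0.049 ± 0.055 (adjusted p = 0.451). Its second probe gave 0.30 and 0.19, and with the mean of all probes PSMD4 was called in PC9M2 too (0.12, adjusted p = 0.0066). PSMD4, PSMD3 and PSMG2 are named here after their values were seen.

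In the lid, 6 of 8 genes fell in PC9 and 7 of 8 in PC9M2, and 1 rose in each. PSMD14, the deubiquitinase that removes the ubiquitin chain before degradation, had the largest fall of all members in PC9. It ran from 13.96 to 15.06 with a median of 14.60 in untreated PC9 and from 12.42 to 14.40 with a median of 13.39 with gefitinib. Its PC9M2 level ran from 13.75 to 15.15 with a median of 14.47 untreated and from 13.17 to 14.16 with a median of 13.49 with gefitinib. The treated levels reached the untreated range only up to 5 h in PC9, and only up to 3 h and at 13 h in PC9M2. The difference was -1.14 ± 0.15 in PC9 (2.2-fold lower, adjusted p = 1.38e-07) and -0.89 ± 0.084 in PC9M2 (1.86-fold lower, adjusted p = 3.32e-10), and -1.25 ± 0.15 and -1.04 ± 0.094 with EGF. PSMD6 and PSMD12, structural lid subunits, fell, at -0.60 and -0.55 in PC9, at 26 of 26 time points each.

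PSMD3, another structural subunit of the same lid, rose in both lines. Its level ran from 10.65 to 13.03 with a median of 12.05 in untreated PC9 and from 11.94 to 13.40 with a median of 12.80 with gefitinib. In PC9M2 it ran from 11.35 to 13.31 with a median of 12.30 untreated and from 11.74 to 13.49 with a median of 12.67 with gefitinib. The lowest untreated levels of PC9 had no counterpart in the treated course, and the ranges overlapped above them. The difference was 0.77 ± 0.15 in PC9 (1.7-fold, adjusted p = 2.94e-05) and 0.34 ± 0.097 in PC9M2 (adjusted p = 0.00276). A second PSMD3 probe gave 0.75 and 0.30, and with EGF the differences were 0.87 ± 0.10 and 0.43 ± 0.10.

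**Figure D3:**
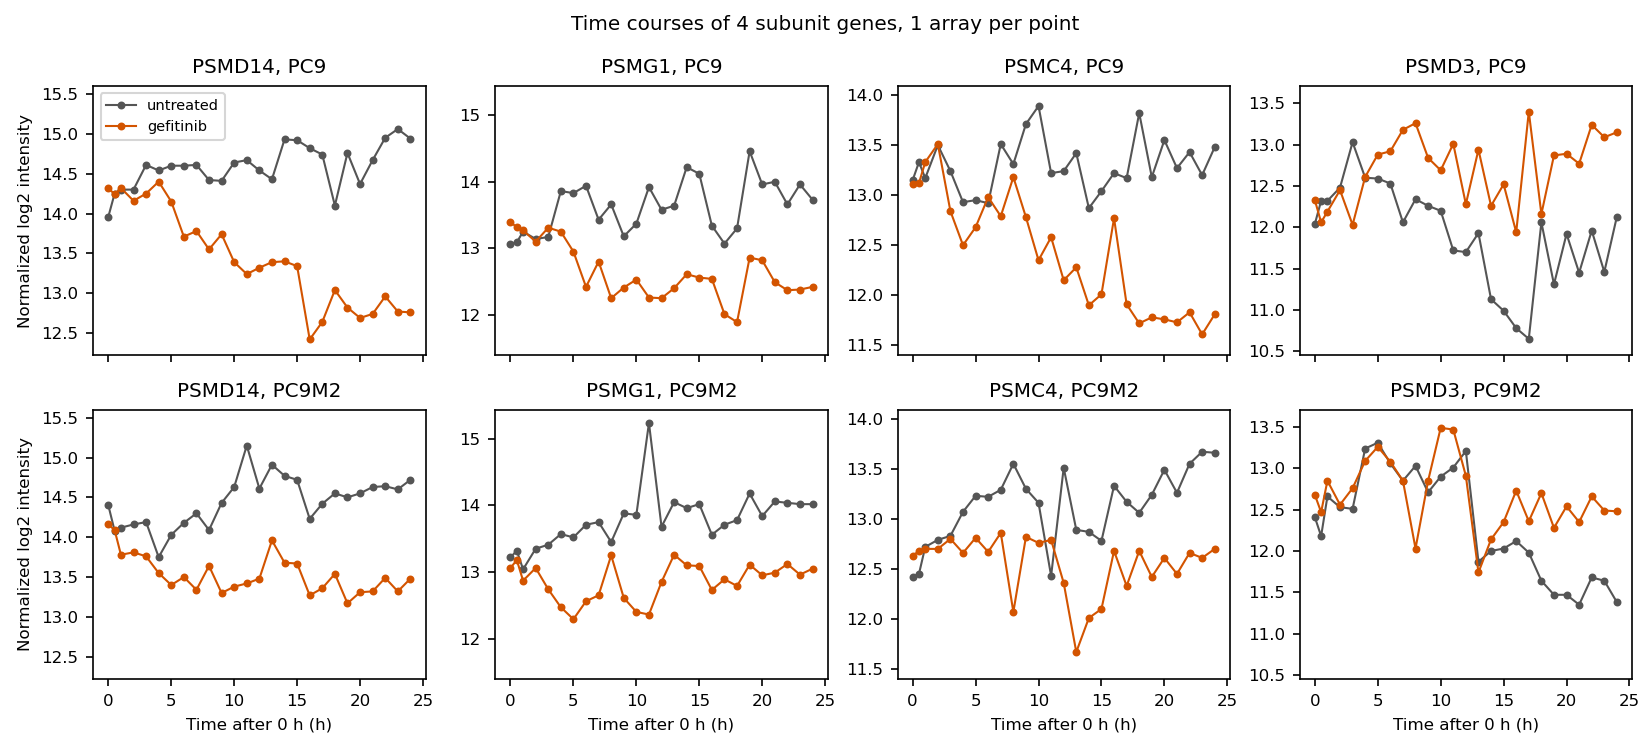
Normalized log2 intensity (y axis) of PSMD14, PSMG1, PSMC4 and PSMD3 over 24 h (x axis) in PC9 (upper row) and PC9M2 (lower row), 1 array per point, grey for untreated and orange for gefitinib. PSMD14 and PSMC4 are lower with gefitinib late in the course, PSMD3 is higher with gefitinib late in the course, and PSMG1 in untreated PC9M2 has its highest point of 15.24 at 11 h.

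The assembly chaperones differed in direction. PSMG1, which with PSMG2 forms the chaperone of the α ring, ran from 13.07 to 14.46 with a median of 13.65 in untreated PC9 and from 11.89 to 13.39 with a median of 12.54 with gefitinib. The level in PC9M2 ran from 13.04 to 15.24 with a median of 13.76 untreated and from 12.29 to 13.26 with a median of 12.92 with gefitinib. The treated median lay below every untreated level in both lines, and the highest untreated PC9M2 level was that of the 11 h array. PSMG1 fell, at -0.96 ± 0.12 in PC9 and -0.92 ± 0.10 in PC9M2 (adjusted p = 4.86e-08 and 8.95e-09), where it was -0.84 without 11 h. Its partner PSMG2 ran from 11.01 to 12.59 with a median of 11.92 in untreated PC9 and from 12.11 to 12.57 with a median of 12.36 with gefitinib. Every treated level lay above the untreated median and within the untreated range. PSMG2 rose by 0.45 ± 0.082 in PC9 and 0.29 ± 0.062 in PC9M2 (adjusted p = 1.77e-05 and 0.000173), and its second probe gave 0.44 and 0.28. PSMG3 fell, at -0.26 and -0.19.

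Of the 3 chaperones of the 19S base, PSMD5 and PSMD9 fell in both lines and PSMD10 had no call (-0.032 and -0.035). PSMD9 fell, at -0.62 ± 0.11 in PC9 and -0.40 ± 0.085 in PC9M2, on a dim probe with levels from 5.49 to 7.35 with a median of 6.67 in untreated PC9. Its brighter probe gave -0.30 and -0.20. PSMD5 fell, at -0.37 and -0.35, and its brighter probe gave -0.090 and -0.16.

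Among the activators, which open the core without ATP, the interferon-inducible pair PA28α and PA28β differed. PSME2 (PA28β) ran from 15.09 to 16.27 with a median of 15.56 in untreated PC9 and from 14.88 to 15.81 with a median of 15.14 with gefitinib. In PC9M2 it ran from 14.52 to 15.80 with a median of 15.24 untreated and from 14.62 to 15.36 with a median of 15.03 with gefitinib. The treated median was close to the lowest untreated level in PC9, and the ranges overlapped. PSME2 fell, at -0.33 ± 0.074 in PC9 and -0.23 ± 0.057 in PC9M2 (adjusted p = 0.000282 and 0.000771). PSME1 (PA28α) differed by 0.019 ± 0.066 and 0.047 ± 0.045, with no call in either line without EGF. PSME3, the nuclear PA28γ, ran from 10.49 to 12.46 with a median of 11.22 in untreated PC9 and from 9.51 to 11.98 with a median of 10.23 with gefitinib. It fell, at -0.99 ± 0.15 in PC9 (adjusted p = 8.27e-07, 25 of 26 time points) and -0.53 ± 0.059 in PC9M2 (adjusted p = 6.89e-09), and its 2 other probes gave -0.65 and -1.05 in PC9. PSME4, the activator PA200, fell, at -0.58 and -0.39. PSMF1, the inhibitor PI31, fell, at -0.33 ± 0.091 in PC9 and -0.22 ± 0.083 in PC9M2, a call that in PC9M2 was lost without pairing (adjusted p = 0.14).

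The gefitinib difference of the core and of the 19S particle grew over the course. In PC9 the median over the 14 constitutive core genes averaged 0.071 from 0 to 5 h, -0.22 from 6 to 11 h, -0.31 from 12 to 17 h and -0.50 from 18 to 24 h. The 17 genes of the 19S particle averaged -0.097, -0.31, -0.39 and -0.61 over the same spans. In PC9M2 the core averaged -0.087, -0.21, -0.26 and -0.44, and the 19S particle -0.045, -0.34, -0.55 and -0.56. Both parts thus started near 0 although gefitinib had been present for 2 h at 0 h. The slope of the difference on time was below 0 for 22 members and above 0 for 4 in PC9 (25.7% and 26.4% of all genes), and for 20 and 3 in PC9M2 (20.3% and 20.4%). Without 0.5 h the PC9M2 counts were 17 and 3, and without 11 h they were 24 and 4. The steepest fall was that of PSMD14 in both lines, with -0.098 ± 0.0084 log2 units per h in PC9 and -0.045 ± 0.0074 in PC9M2 (adjusted p = 1.07e-10 and 1.39e-05).

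PSMB8, PSMD3 and PSMG3 had positive slopes in both lines and PSMG2 in PC9. The slopes per h were 0.031 ± 0.0097 and 0.031 ± 0.0075 for PSMB8 and 0.071 ± 0.014 and 0.044 ± 0.01 for PSMD3 in PC9 and PC9M2. PSMG3, which fell on average, therefore fell less late than early. The immunoproteasome median in PC9 averaged 0.23, 0.32, 0.36 and -0.056 over the 4 spans, and in PC9M2 -0.11, 0.42, 0.22 and 0.087. With EGF it averaged 0.32 in PC9 and 0.34 in PC9M2 from 18 to 24 h. Its highest PC9M2 value, 1.39, was at 11 h, the time of the untreated array that stood apart.

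**Figure D4:**
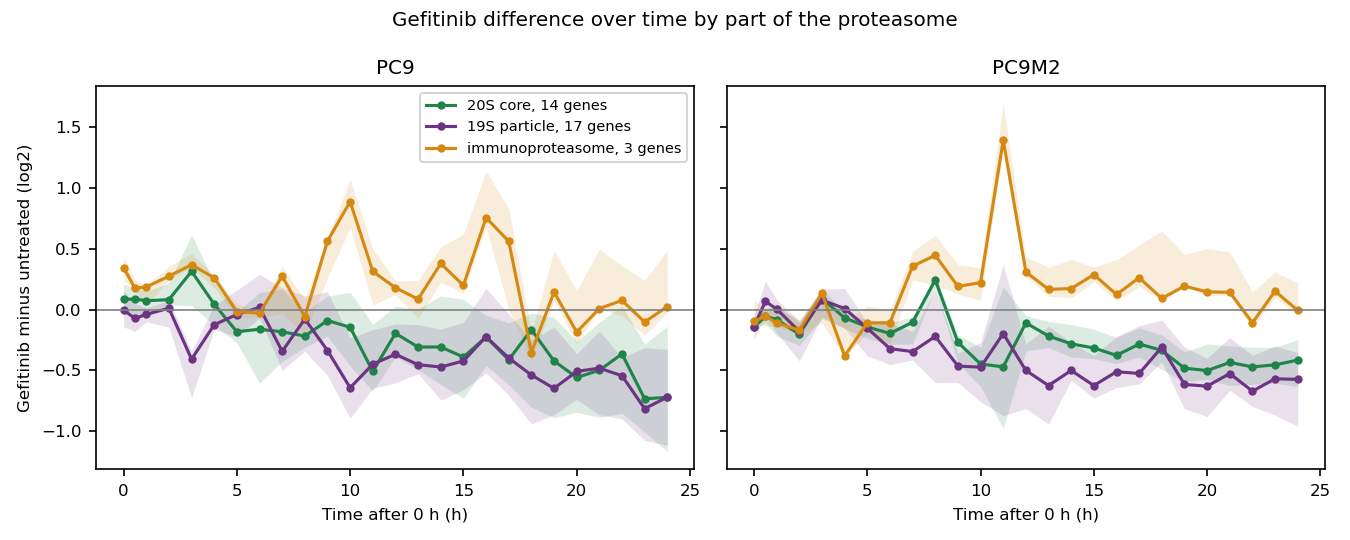
Median gefitinib minus untreated difference on the log2 scale (y axis) over 24 h (x axis) in PC9 (left) and PC9M2 (right) for the 14 core genes without the immunoproteasome (green), the 17 genes of the 19S particle (purple) and the 3 immunoproteasome genes (orange), with shading from the lower to the upper quartile over genes. The green line is below 0 at 20 of 26 time points in PC9 and 24 in PC9M2 and the purple line at 24 and 22, whereas the orange line is below 0 at 6 and 9.

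The median correlation between the gefitinib differences of 2 α ring genes over the 26 time points was 0.49 in PC9 and 0.62 in PC9M2, beside 0.31 and 0.49 over the 14 constitutive core genes, 0.30 and 0.32 over the 17 genes of the 19S particle, 0.43 and 0.62 over the immunoproteasome and 0.15 and 0.22 over all members. For the 6 tested assembly chaperones it was 0.049 and -0.030. These describe time points that share arrays and slides, and the trend over time enters them. The gene most like the median of the other 44 members was PSMC4 in PC9 (r = 0.90) and PSMC5, another base ATPase, in PC9M2 (0.90), and the gene least like it was PSMG2 in PC9 (-0.80) and PSMD3 in PC9M2 (-0.71).

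All 3 immunoproteasome genes were lower in PC9M2 than in PC9 under each treatment. PSMB10 was lower in PC9M2 by more than 1 log2 unit under each treatment, the only member of which this held. Its untreated level ran from 12.69 to 13.83 with a median of 13.44 in PC9 and from 9.93 to 12.91 with a median of 11.88 in PC9M2, where the lowest value was that at 11 h. The ranges overlapped slightly, through the PC9M2 levels from 22 h on. The PC9M2 minus PC9 difference was -1.37 ± 0.16 untreated (2.59-fold lower, adjusted p = 7.74e-09), -1.29 ± 0.16 with gefitinib, -1.13 ± 0.14 with EGF and -1.22 ± 0.16 with both. PSMB9 was lower, at -1.04 ± 0.12 untreated and -1.16 ± 0.10 with gefitinib, where the courses did not overlap (2.1% of all genes were lower in this way), and PSMB8 at -0.52 ± 0.095 and -0.55 ± 0.075. The scan day as a random block left PSMB10 at -1.39 untreated (adjusted p = 4.56e-07).

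Over all 45 members the line difference had no common direction. Untreated, 17 were lower and 11 higher in PC9M2 (37.7% and 30.4% of all genes), and with each array scaled to its 75th percentile 14 and 16. Shares of all genes with percentile scaling are not given. With gefitinib the counts were 20 and 10 (34.8% and 30%; 17 and 15 by percentile scaling), with EGF 18 and 12 (37.7% and 32.2%; 13 and 17), and with both 21 and 10 (37% and 30.7%; 18 and 14). Under all 4 treatments 15 members were lower (25.8% of all genes) and 8 higher (22.1%). The 15 include the 3 immunoproteasome genes, both PA28 genes of the interferon-inducible pair and PSMA6, PSMB2 and PSME3, and the 8 are PSMA4, PSMB1, PSMC6, PSMD7, PSMD8, PSMD10, PSMF1 and PSMG3. Of the latter PSMD7, a lid subunit, differed by 0.60 ± 0.062 untreated and PSMF1 by 0.53 ± 0.099. The brighter PSMF1 probe gave 0.34 untreated and 0.079 with both agents, where the used probe gave 0.57. PSMB1 is counted among the 8, but its used probe was saturated on 97 of the 104 PC9 arrays. That probe does not establish a direction or size between the lines. The second PSMB1 probe, saturated on 16 of these arrays, gave 0.63 untreated, 0.53 with gefitinib, 0.71 with EGF and 0.53 with both.

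Several of these line differences depend on scaling or probe. PSME2 was lower, at -0.32 ± 0.066 untreated and was 0.089 with percentile scaling, and PSMB6 was lower, at -0.28 with gefitinib and 0.30 with percentile scaling. PSMA6 was lower, at -0.98 ± 0.089 untreated and -0.48 ± 0.13 with gefitinib, PSMB2 at -0.79 ± 0.11 and -0.56 ± 0.094, and PSME1 at -0.47 ± 0.083 and -0.44 ± 0.075, where the brighter PSME1 probe gave -0.15 untreated. PSMC1, PSMD1, PSMD4 and PSMG2 had probes of opposite sign untreated. Those of PSMD1 gave -0.20 and 0.25. Those of PSMC1, which is counted among the 15 lower members, ran from -0.45 to 0.020. PSMD14 and PSMG1, which had the 2 largest falls with gefitinib in PC9M2, differed between the untreated lines by -0.14 ± 0.073 and 0.17 ± 0.08, neither called.

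The gefitinib difference itself was then compared between the lines. It was more positive in PC9M2 for 6 members (17.4% of all genes) and more negative for 4 (16.7%) without EGF. Neither count is above its share of all genes, so these counts are not read as a result about the members. These counts were 1 and 7 with percentile scaling, 4 and 1 with normexp correction, 3 and 4 without 0.5 h, 4 and 4 without 11 h and 2 and 4 without 16 and 18 h. Shares of all genes under these settings are not given. With EGF 3 were more positive (22.7%) and 15 more negative (25.9%; 4 and 10 with normexp correction). PSMA6, PSME3 and PSME4 were called more positive in PC9M2 in both (13.7% of all genes were). With percentile scaling only PSME3 of the 3 was called without EGF, and without 16 and 18 h only PSMA6. With EGF the probes of PSME3 differed in sign, from -0.019 to 0.25. PSMD3 was more negative in both, at -0.43 ± 0.15 and -0.44 ± 0.093. PSMA5, PSMB1 and PSMB7 were more negative in PC9M2 in both, and are the members most often saturated in PC9 beside PSMB4. With PSMD3 they make 4 members more negative in both, beside 14.7% of all genes. With saturated spots left out the counts without EGF were 5 and 1. PSMA5, PSMB1 and PSMB7 then had fewer than the 5 pairs that a fit needs. The lower second count therefore says nothing about their direction. The difference between the lines was 0.25 ± 0.10 for PSMD14 and 0.046 ± 0.11 for PSMG1, neither called.

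EGF alone changed few members. In PC9 PSMD12 was higher and 5 were lower (11.1% and 14.3% of all genes), and with percentile scaling 5 were higher and 4 lower. The 5 were PSMB8 (-0.26 ± 0.049), PSMB9 (-0.32 ± 0.049), PSMB10 (-0.25 ± 0.039), PSMD1 (-0.12) and PSMG2 (-0.18), so all 3 immunoproteasome genes fell with EGF, with adjusted p of 0.000173, 1.93e-05 and 2.38e-05. Their untreated PC9 ranges, given above, overlapped with those with EGF, which ran from 9.60 to 10.88 with a median of 10.26 for PSMB8. Without pairing by time point PSMB8 and PSMB10 lost the call (adjusted p = 0.168 and 0.0977). The PC9 EGF arrays are also subtracted in the gefitinib difference with EGF. The fall here and the rise there are thus not separate measurements. In PC9M2 PSMB8 fell, at -0.23 ± 0.058 (adjusted p = 0.0115), the 1 member lower of 45, and 0 were higher (4.95% and 4.1% of all genes). That call was lost without pairing (adjusted p = 0.337) and with time points 3 h apart (adjusted p = 0.0751). PSMB9 and PSMB10 differed by 0.00086 and -0.007 there.

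With gefitinib present EGF changed 0 of 45 members in PC9 by limma with adjustment (0.0446% of all genes were higher and 0% lower), and 5 had an unadjusted p under 0.05, 3 higher and 2 lower. The largest difference of any member there was 0.20 log2 units, and the smallest adjusted p was 0.251. In PC9M2 PSMD14 was lower, at -0.099 ± 0.026 (adjusted p = 0.0352; 2.1% of all genes were lower and 0.944% higher), a call that was lost without the 11 h time point.

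Without treatment a spline of time was called for 28 of 45 members in PC9 and 31 of 45 in PC9M2, beside 66.5% and 67.4% of all genes, and with the scan day as a random block for 13 in PC9M2. Counts near these shares are not a result about the members. In untreated PC9 the level of PSMG2 had its maximum of 12.59 at 1 h and its minimum of 11.01 at 23 h. PSMD3 had its maximum of 13.03 at 3 h and its minimum of 10.65 at 17 h, and was back at 12.13 at 24 h. Both genes, which rose with gefitinib, were thus compared with an untreated course that was lower late than early for PSMG2 and lowest in its later middle for PSMD3.

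Of 25 tested partners (ubiquitin, shuttles, deubiquitinases and regulators outside the naming rule), 14 fell and 4 rose in PC9 and 15 fell and 2 rose in PC9M2. Beside them, 37.2% of all genes fell and 34.9% rose in PC9, and 33.8% and 32.6% in PC9M2. The largest differences in PC9 were those of USP14, a proteasome-bound deubiquitinase (-1.07 ± 0.12, and -0.71 ± 0.072 in PC9M2), UBQLN1, a shuttle of ubiquitinated proteins (-1.02 ± 0.12 and -0.66 ± 0.12), and UBE3C, a ubiquitin ligase (-0.96 ± 0.14 and -0.43 ± 0.15). Of 9 tested heat shock chaperones 8 fell and 1 rose in PC9 and 7 fell and 1 rose in PC9M2, with HSPA8 at -1.23 ± 0.14 and -0.62 ± 0.11, HSP90AA1 at -0.94 ± 0.10 and -0.68 ± 0.10, and DNAJB1 at -0.91 ± 0.088 and -0.52 ± 0.062. Median differences were -0.24 and -0.26 for the partners and -0.69 and -0.39 for the chaperones.

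Of 15 tested NRF2 targets 9 fell and 1 rose in PC9 and 6 fell and 4 rose in PC9M2, with medians of -0.23 and 0.0058. Beside these and the next lists, 37.2% of all genes fell and 34.9% rose in PC9, and 33.8% and 32.6% in PC9M2. The NRF2 counts in PC9M2 are near these shares and are not a result about the list. The cystine transporter gene SLC7A11 fell, at -2.07 ± 0.32 and -1.50 ± 0.22, SRXN1, which reduces peroxiredoxins, at -1.38 ± 0.11 and -0.95 ± 0.071, and ME1, which makes NADPH, at -0.90 ± 0.086 and -0.76 ± 0.08. Of the class I antigen processing genes 13 of 22 rose and 4 fell in PC9 and 16 rose and 4 fell in PC9M2, with medians of 0.23 and 0.26. NLRC5, the activator of class I genes, rose by 1.42 ± 0.26 and 1.41 ± 0.17, TAPBP of the peptide loading complex by 1.17 ± 0.21 and 0.74 ± 0.096, and IRF7, an interferon regulatory factor, by 0.93 ± 0.08 and 0.90 ± 0.076. As another large complex, the 74 cytosolic ribosomal protein genes rose in 30 and fell in 4 cases in PC9 and in 24 and 2 in PC9M2 (medians 0.095 and 0.057), with RPS26 (-2.07 ± 0.29 and -2.23 ± 0.28), RPL10 (0.89 ± 0.20 and -0.085 ± 0.18) and RPL27A (-0.80 ± 0.14 and -1.04 ± 0.23) farthest from 0 in PC9. Genes of these families have near-identical copies that probes can share, so single ribosomal values are uncertain. The 24 ribosomal genes that rose in PC9M2 are near the share of all genes that rose there.

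Of the 64 probes of tested members 48 had a negative mean gefitinib difference in PC9 and 53 in PC9M2. Among the 15 genes with several probes, the probes of PSMB1 disagreed in sign in PC9, and none did in PC9M2. Neighbouring time points were not independent, as the median lag-1 autocorrelation of the members' paired differences was 0.28 in PC9 and 0.31 in PC9M2, and with the variance inflated for it 32 of 35 calls in PC9 and 33 of 36 in PC9M2 were kept.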

How the data were processed

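RNA of 2 lines under 4 treatments at 26 time points was measured on 208 one-colour Agilent arrays. The deposited intensities are the processed signals of the scanner software, which the authors produced with Feature Extraction (version 10.5.1.1 per the file headers), with local background subtracted and no scaling between arrays. Saturation, outlier and background flags deposited beside them were used as given. The authors also deposited a table of quantile-normalized intensities, not log2 transformed, which served as an alternative. After log2 transformation here it equalled the quantile-normalized processed signals within 0.00201 log2 units. Here the intensities were quantile normalized over all arrays, set to at least 1 and log2 transformed. Outlier spots (0.0794% of values) were dropped, so some differences rest on 25 pairs, and replicate spots were averaged. Of 41000 probes 25436 matched a RefSeq symbol by accession. The probe of largest variance stood for each gene, and genes above background on at least 13 of 26 arrays of a course were tested (13455).

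Differences paired by time point were tested with limma 3.58.1 in R 4.3.3, two-sided, with Benjamini-Hochberg adjustment over all tested genes, with Python 3.11.15, numpy 2.4.6 and pandas 2.3.3 for the rest. The pairing follows the time points in the labels. Paired arrays also share a slide in comparisons of treatments within a line, but not in those of PC9M2 with PC9. The code was tested on simulated data. Named by rule were the immunoproteasome and catalytic genes, PSME1, PSME2 and in each other role the gene of largest gefitinib difference per line. So were genes that differed by 1 log2 unit or more between the lines under all treatments. Genes with opposite gefitinib calls in the lines, and genes whose probes disagreed in sign of the gefitinib difference, were named too. Of each other list the 3 largest differences were named. The members and lists were chosen with earlier results of these data known. Alternatives covered scaling, background correction, probe choice, filters, floor, pairing, autocorrelation, scan day and subsets of time points. Leaving out saturated spots, and the 0.5 h, 11 h or 16 h and 18 h time points, was chosen after seeing the data. A marker of another cell type is not reported here. The number of arrays limits the precision.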

Additional observations from a re-analysis of the deposited data

Results flagged for a closer look

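The gefitinib difference of some members differed between the lines by limma's test of the difference itself, given here as PC9M2 minus PC9 on the log2 scale. Without EGF it was more positive in PC9M2 for PSMA6 (0.51), PSME3 (0.47), PSMC4 (0.31), PSMB2 (0.23), PSMA2 (0.20) and PSME4 (0.19). It was more negative for PSMD3 (-0.43), PSMA5 (-0.36), PSMB1 (-0.29) and PSMB7 (-0.23). With EGF it was more positive for PSMA6 (0.29), PSME3 (0.25) and PSME4 (0.22). It was more negative there for PSMD3 (-0.44), PSMG2 (-0.30), PSMA5 (-0.29), PSMB6 (-0.29), PSMA1 (-0.26), PSMB7 (-0.25), PSMD4 (-0.23), PSMC5 (-0.23), PSMD8 (-0.23), PSMB1 (-0.23), PSMB9 (-0.23), PSMA3 (-0.19), PSMD1 (-0.19), PSMB4 (-0.17) and PSMD10 (-0.14). Of all genes 17.4% were more positive and 16.7% more negative without EGF, and 22.7% and 25.9% with EGF. Without EGF the members named are not above these shares. The counts behind the comparison without EGF change with the scaling, the background correction and the time points used, and the saturation of PSMA5, PSMB1, PSMB4, PSMB6 and PSMB7 in PC9 moves with the line. Its part in these differences was not tested beyond leaving out saturated spots, which left PSMA5, PSMB1, PSMB4 and PSMB7 without a fit.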

How the results depend on the processing

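Calls of members kept their number within 1.5 times for 284 counts over the alternatives and moved for 48. Of the values of named members 3617 kept direction and side of the threshold, 280 lost the call, 87 gained one and 15 reversed. The causes were not tested. Shares of all genes under each alternative are not given, here or above. A changed count can therefore reflect a change in calls over all genes and is not a result about the members. With time points 3 h apart, which leaves fewer pairs, the gefitinib counts were 23 in PC9 and, with EGF, 28 in PC9M2, the line counts 18 untreated, 16 with gefitinib, 16 with EGF and 15 with both, the counts of line differences in the gefitinib effect 1 without and 3 with EGF, and the EGF counts 0 in PC9, 0 in PC9M2 and 0 in PC9M2 under gefitinib. With the first 13 time points the gefitinib counts were 18 in PC9, 11 in PC9M2, 23 in PC9 with EGF and 24 in PC9M2 with EGF, the EGF counts 3, 0 and 0, and the differences between lines 0 and 4. Without the replicate block, that is without pairing by time point, the EGF counts were 1 in PC9, 0 in PC9M2 and 0 in PC9M2 under gefitinib and the differences between lines 3 and 4, and 32 of 35 gefitinib calls in PC9 and 33 of 36 in PC9M2 were kept. The EGF count in PC9M2 was 2 by the methods' t-test, without 0.5 h, with percentile scaling, normexp correction, the mean of all probes, a floor of 16 or a spline in place of outlying points, and 3 with the last 13 time points or the probe of highest mean. EGF under gefitinib in PC9M2 gave 2 with normexp correction and 0 without 11 h. One-sided tests for higher levels gave line counts of 11, 10, 12 and 9, and variance inflated for autocorrelation 17 with gefitinib, 16 with both and 5 for the difference between lines. That difference gave 6 with the scan day as a block, 6 without 16 h and 18 h, 5 with normexp correction and 6 without saturated spots, and the change over time in PC9M2 gave 13 with the scan day as a block. Signs reversed with percentile scaling for the line difference of PSMB6 (0.30 with gefitinib, 0.29 with both), PSMB7 (0.0055 with gefitinib) and PSME2 (0.089 untreated), with the last 13 time points for PSME2 (0.0011 with both) and PSMD1 (0.017 with gefitinib, 0.064 with both), and with the probe of highest mean for PSMD1 (0.14 and 0.088) and PSMG2 (0.022 with gefitinib). With normexp correction PSMA5 reversed for gefitinib in PC9 (-0.083) and for the line difference untreated (-0.11), with EGF (-0.17) and with both (-0.076), and PSMB1 for gefitinib with EGF in PC9 (-0.048). Saturation limits PSMA5, PSMB1, PSMB4 and PSMB7 in PC9, which could not be fitted there without saturated spots.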
